A study of Mus musculus with 9 samples.

Results

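The genes described are the SR proteins and hnRNP proteins of mouse neurons, with the Tra2 proteins and the Clk kinases that act beside them. Members were taken by symbol, as every gene whose symbol starts with Srsf or Hnrnp, together with Clk1 to Clk4, Tra2a and Tra2b, with at least 100 counts summed over all libraries. That gave 37 of the 24060 genes in the deposited count table, namely 11 SR protein genes, 2 Tra2 genes, 4 Clk genes and 20 hnRNP genes. No gene with a matching symbol fell below the minimum, and the least-counted member, Hnrnpa1, had 8862 counts over the 9 libraries. All 37 members passed the filter on low counts.

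The cells were primary immature neurons from mouse embryos of embryonic day 14, kept for 2 days in vitro in medium with fetal bovine and horse serum. The groups were untreated control cultures, cultures given 1 mM 2-deoxyglucose (2-DG) for 6 h, and cultures given 10 mM 2-DG for 6 h, with 3 libraries each. 2-DG resembles glucose, enters cells and blocks early glycolysis, and it also disturbs the N-glycosylation of proteins. The sources used here name no strain, genotype, sex, brain region or pooling of embryos, and the replicates are described only as independent, so the p-values measure the spread between these libraries.

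SR proteins carry RNA recognition motifs and a tail rich in arginine and serine, bind enhancer sequences in exons and help the spliceosome to choose splice sites. Kinases of the Srpk and Clk families phosphorylate that tail, which governs where SR proteins sit in the nucleus and how they act. hnRNP proteins coat nascent RNA and often oppose exon inclusion, and many genes of both families hold a poison exon or a retained intron that carries a premature stop codon and sends the transcript to nonsense-mediated decay, a route by which the proteins limit their own level.

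The part of the gene structure that such decay uses is shown first because it bears on how a gene count can be read. In the GENCODE annotation of GRCm38, 25 of the 37 members had a transcript annotated for nonsense-mediated decay and 28 had one with a retained intron. Some decay transcripts, those of Srsf1, Srsf2, Srsf5 and Srsf6 among them, had the stop codon in an exon overlapping one of an annotated protein-coding transcript. In 9 members the stop codon of a decay transcript lay in an exon that overlapped no such exon of the gene. They were Srsf3, Srsf4, Srsf7, Srsf9, Srsf11, Tra2a, Tra2b, Hnrnpl and Hnrnpll, so 7 of the 13 SR and Tra2 genes and 2 of the 20 hnRNP genes. For 6 of these 9 the last 30 coding bases of a decay transcript are given 5′ to 3′ on the strand of the gene, with the premature stop codon in capitals.
Srsf3: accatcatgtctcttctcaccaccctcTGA
Srsf4: gtaacccggttgtctcatgccccagctTAG
Srsf7: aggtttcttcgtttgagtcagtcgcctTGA
Srsf9: cctgggttggagattacggattcacagTAG
Tra2a: aaaaaattgaacagaagattggtcagaTAG
Tra2b: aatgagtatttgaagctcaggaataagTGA
The exon of Srsf3 is 456 bp long (chr17:29039454-29039909, plus strand), that of Srsf7 460 bp (chr17:80204622-80205081, minus strand), that of Tra2a 306 bp (chr6:49252803-49253108, minus strand) and that of Tra2b, in its shorter annotated form, 276 bp (chr16:22258986-22259261, minus strand). A count per gene adds the reads of coding and decay transcripts together, so every value below is a total over both kinds of transcript.

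The libraries held 40.1 M to 48.2 M gene counts, and the 37 members together took between 0.925% and 1.11% of them. Ddit3, the stress transcription factor CHOP, averaged 13.2 ± 0.557 CPM in untreated cultures, 100.0 ± 17.9 CPM with 1 mM and 150.3 ± 3.60 CPM with 10 mM 2-DG (SD, n = 3 each). CPM are counts relative to the library size after scaling by trimmed means of M values (TMM). The replicate 2 libraries stood apart within their groups. Read counts of a replicate 2 library and another library of its group differed by a chi-square of 14.6 to 23.4 per degree of freedom, against 8.91 to 9.94 between replicates 1 and 3. Replicate 2 was the lowest library for 29 of the 37 members in control, for 29 at 1 mM and for 32 at 10 mM, and for 37.1%, 40% and 41.4% of all genes tested in the same groups. Of the markers of immature neurons, all 11 had counts in every group, with a summed level of 7267 to 7507 CPM in control, 7017 to 7203 CPM at 1 mM and 6180 to 6515 CPM at 10 mM, where 1 was higher and 3 were lower than in control. For all genes tested, 25.7% were higher and 24.0% lower in that comparison.

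Per kilobase of exon, the levels of the members in untreated neurons spanned a wide range. The exon length merged all annotated transcripts of a gene, decay and retained-intron forms included, and ran from 1653 bp (Srsf9) to 22199 bp (Hnrnpr). More annotated sequence lowers the value, so the order depends on the annotation as well as on the counts. Hnrnpab, which binds RNA and single-stranded DNA, was highest at 331.8 ± 30.1 CPM per kb (SD, n = 3), followed by Hnrnpa0 at 226.5 ± 17.3 CPM per kb. Srsf2, Hnrnph1 and Srsf1 came next at 142 ± 17.2, 141 ± 13.9 and 132 ± 8.90 CPM per kb, and the control libraries of these neighbours overlapped. At the low end stood Srsf12 at 7.01 ± 0.751, Hnrnpa1 at 6.78 ± 0.833 and Hnrnpa3 at 5.48 ± 0.231 CPM per kb. The Tra2 and Clk genes lay between 7.29 and 18.3 CPM per kb. In 27 of the 36 neighbouring pairs of the order the control libraries overlapped. The level of Hnrnpa1 is uncertain, since 44.8% of the 75-base stretches of its protein-coding transcripts also stood in transcripts of other genes on the same strand, and the sources used here do not say how such reads were counted.

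**Figure D1:**
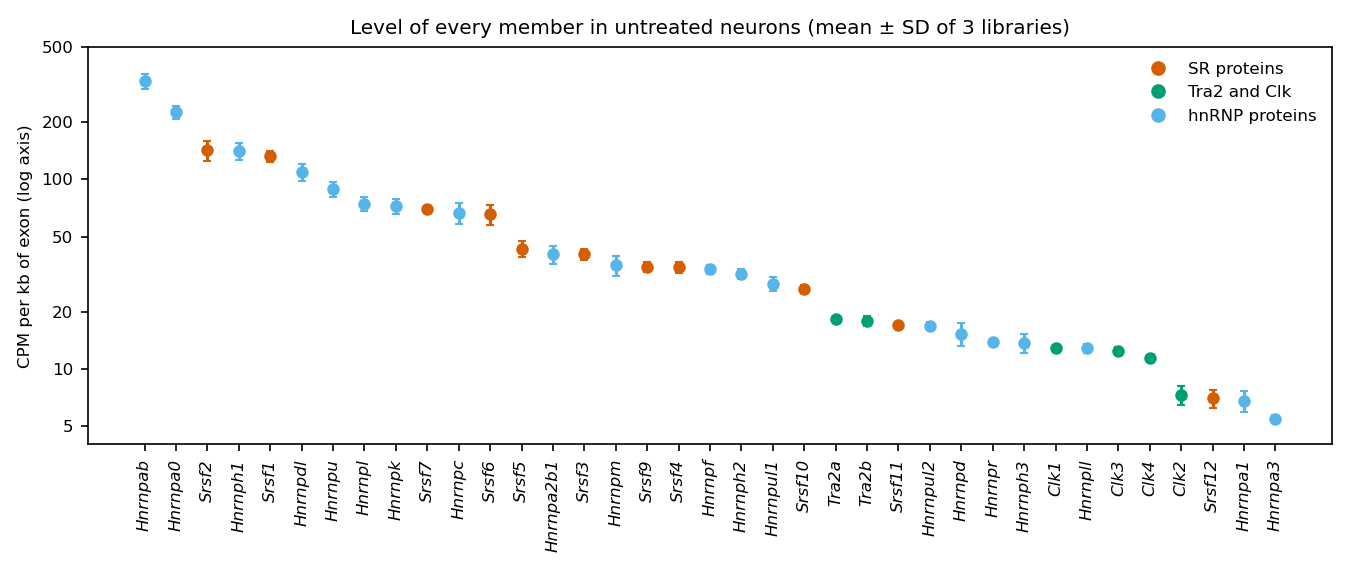
Level of all 37 members in untreated neurons, in CPM per kb of exon on a log axis, ordered from high to low and coloured by role. Exon length merges all annotated transcripts of a gene. Points are means and bars SD of 3 libraries. Hnrnpab leads at 331.8 CPM per kb and Hnrnpa3 is last at 5.48.

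The comparison of 10 mM 2-DG with control asks how the splicing regulators stood after 6 h of the higher dose. Most SR genes, both Tra2 genes and 2 of the 4 Clk kinase genes rose, while of the hnRNP genes some rose and some fell, in shares near those of all genes. By edgeR's quasi-likelihood test, adjusted after Benjamini and Hochberg over 15153 genes, 17 of the 37 members (45.9%) were higher at 10 mM and 8 (21.6%) were lower at a threshold of 0.05. Of all genes tested, 25.7% were higher and 24.0% lower, so the share of members higher stood above that background and the share lower close to it. All 25 calls had the same direction in each of the 3 replicate numbers. The calls were made on these same libraries, so this adds no separate support. For 17 members all 10 mM libraries lay above all control libraries and for 7 all lay below, which was the case for 29.2% and 27.6% of all genes. The median log2 fold change was 0.20 over the members and -0.01 over all genes.

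The result depended in part on the scaling. With library totals alone, under which the median log2 fold change of all genes was -0.10, against -0.01 with TMM, 12 members were higher and 9 lower, against 18.8% and 31.5% of all genes. Higher calls then made up 57.1% of the calls, against 68% with TMM. The calls not made with library totals alone were Srsf5, Srsf12, Tra2a, Hnrnpul1 and Hnrnpul2, and Hnrnpk was added as lower. With the replicate number as a block, 22 members were higher and 9 lower, against 34.4% and 33.8% of all genes. Without the 3 replicate 2 libraries, an alternative chosen after seeing the data, all 25 calls were kept and Clk2 (higher) and Hnrnpk (lower) were added. In that fit, 3870 of 15296 genes were higher and 3849 lower.

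At 10 mM against control, 25.7% of all genes were higher and 24.0% lower. Among the SR genes, 9 of 11 (81.8%) were higher and 2 (18.2%) were lower, with a median log2 fold change of 0.35. Srsf6 changed most. It stood at 331, 272 and 341 CPM in the control libraries of replicates 1, 2 and 3, at 408, 338 and 414 CPM at 1 mM and at 549.8, 471 and 564 CPM at 10 mM. The 10 mM libraries were the highest group without overlap, and the log2 fold change against control was 0.75 (SE 0.10, adjusted p = 0.000193). Srsf6 regulates splicing of tau exons among other targets and lies at chr2:162931528-162937121 on the plus strand (GRCm38).

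Srsf3, the smallest SR protein, which also takes part in mRNA export, stood at 334, 295 and 323 CPM in control, at 361, 323 and 379 CPM at 1 mM and at 510, 430 and 539 CPM at 10 mM. Here too every 10 mM library lay above every other library, at 0.63 against control on the log2 scale (SE 0.087, adjusted p = 0.000174). Its gene (chr17:29032628-29043373, plus strand) holds the decay exon printed above, and 25.2% of the 75-base stretches of its protein-coding transcript recurred in other genes, among them pseudogenes. Srsf4 had 126, 113 and 128 CPM in control, 135, 118 and 138 CPM at 1 mM and 172, 152 and 179 CPM at 10 mM, again with the 10 mM libraries above all others, and the log2 fold change was 0.45 at 10 mM against control (SE 0.080, adjusted p = 0.000852). For Srsf4, 63.8% of the 75-base stretches lay opposite Gm12992, which stood in the table at 5.14 ± 0.288 CPM at 10 mM and 3.999 ± 0.554 CPM in control.

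Srsf7, a zinc-knuckle SR protein related to Srsf3, varied little among control and 1 mM libraries. It stood at 251, 247 and 247 CPM in control, at 258, 260 and 258 CPM at 1 mM and at 329, 303 and 337 CPM at 10 mM. The 10 mM libraries stood clear of the other groups, at 0.38 against control on the log2 scale (SE 0.046, adjusted p = 7.66e-05). Srsf10, a splicing regulator that is dephosphorylated upon heat shock, had 184, 177 and 194 CPM in control, 191, 180 and 206 CPM at 1 mM and 243, 216 and 248.5 CPM at 10 mM. Its log2 fold change at 10 mM against control was 0.35 (SE 0.067, adjusted p = 0.00154), and the libraries at 1 mM overlapped those of control.

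Srsf1, the founding member of the family, was the most abundant SR gene by CPM. It had 769, 698 and 797 CPM in control, 800.2, 716 and 823 CPM at 1 mM and 912, 855 and 938 CPM at 10 mM, and its log2 fold change at 10 mM against control was 0.26 (SE 0.066, adjusted p = 0.00832). Srsf11 had 139, 143 and 149.96 CPM in control, 141, 136 and 148 CPM at 1 mM and 174, 161 and 178 CPM at 10 mM, or 0.24 on the log2 scale at 10 mM against control (SE 0.054, adjusted p = 0.00343). In both genes the 1 mM and control libraries overlapped and the 10 mM libraries lay above them. Srsf12 and Srsf5 rose as well at 10 mM, with log2 fold changes of 0.36 (SE 0.10) and 0.30 (SE 0.091).

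The SR genes that fell were Srsf9 and Srsf2. Srsf9, a small SR protein close to Srsf1, stood at 56.3, 54.5 and 61.3 CPM in control, at 48.1, 50.1 and 51.0 CPM at 1 mM and at 45.1, 45.3 and 48.5 CPM at 10 mM. Its 10 mM libraries lay below all control libraries, at -0.31 on the log2 scale (SE 0.059, adjusted p = 0.00142). Srsf2, known for exon recognition and for a role in releasing paused RNA polymerase, averaged 354 ± 28.7 CPM at 10 mM and 421 ± 51.0 CPM in control, which is -0.25 on the log2 scale (SE 0.092, adjusted p = 0.0412), and its groups overlapped. On the opposite strand, 29.0% of its 75-base stretches lay in Mettl23 and Mfsd11, and Mfsd11 was higher at 10 mM (40.1 ± 4.34 CPM, against 28.1 ± 1.26 CPM in control).

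The calls of 3 SR genes did not pass in every fit with 1 library left out, while all 3 passed with the replicate block. Srsf2 did not pass without replicate 1 or 2 of 10 mM, replicate 3 of 1 mM, or replicate 1 or 3 of control (adjusted p 0.0513 to 0.108). Srsf5 did not pass without replicate 1 or 3 of 10 mM or replicate 1 or 2 of control (0.0527 to 0.0781), nor did Srsf12 without replicate 2 of 10 mM or replicate 1 or 3 of control (0.0639 to 0.0662). Over all fits with 1 library left out, the log2 fold change ran from -0.37 to -0.21 for Srsf2, from 0.21 to 0.36 for Srsf5 and from 0.26 to 0.44 for Srsf12.

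**Figure D2:**
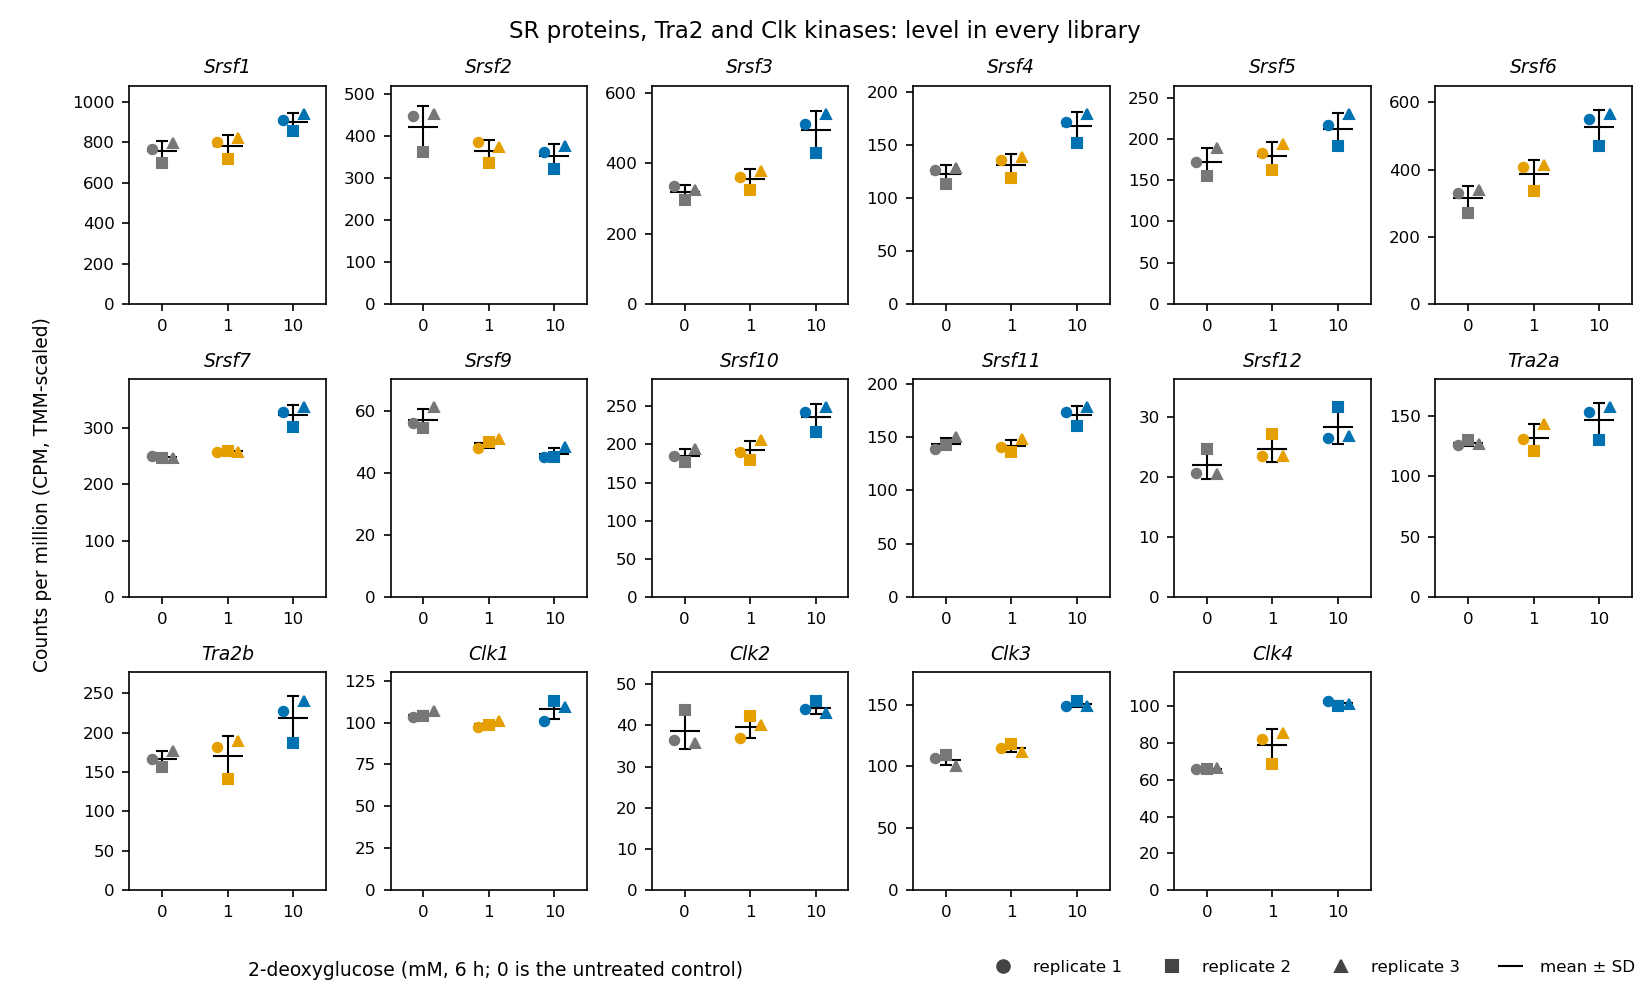
CPM of the 11 SR genes, the Tra2 genes and the Clk genes in all 9 libraries, by dose of 2-DG in mM (0 is control). Symbols mark the replicate number, and the dash with bars gives mean and SD of 3 libraries. Every 10 mM library of Srsf3, Srsf6 and Srsf7 lies above every library of the other doses, Srsf2 and Srsf9 lie lower, and replicate 2 is often the lowest of its group.

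Of the 6 Tra2 and Clk genes, 4 (66.7%) were higher at 10 mM than in control and none was lower (median log2 fold change 0.30). Of all genes, 25.7% were higher and 24.0% lower in that comparison. Clk3 and Clk4 encode dual-specificity kinases that phosphorylate SR proteins in the nucleus. Clk4 (chr11:51261730-51281766, plus strand) stood at 65.7, 65.7 and 66.7 CPM in control, at 82.2, 68.7 and 85.7 CPM at 1 mM and at 103, 100.3 and 101 CPM at 10 mM. The groups did not overlap at any dose. The log2 fold change was 0.62 at 10 mM against control (SE 0.072, adjusted p = 5.29e-05).

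Clk3 stood at 107, 109 and 100.5 CPM in control, at 115, 118 and 112 CPM at 1 mM and at 149, 153 and 149 CPM at 10 mM. All 10 mM libraries lay above the rest, at 0.51 against control on the log2 scale (SE 0.046, adjusted p = 1.00e-05). On the opposite strand, 29.6% of its 75-base stretches lay in Edc3, which averaged 28.1 ± 1.33 CPM at 10 mM and 24.5 ± 0.933 CPM in control. Clk1 averaged 108 ± 6.13 CPM at 10 mM and 105 ± 2.18 CPM in control, and Clk2 averaged 44.3 ± 1.58 CPM at 10 mM and 38.6 ± 4.42 CPM in control. Neither passed the test, but Clk2 passed with the replicate number as a block (log2 fold change 0.20, adjusted p = 0.000724).

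Tra2a and Tra2b are SR-like activators that bind purine-rich exon enhancers. Tra2b stood at 167, 156 and 177 CPM in control, at 181, 141 and 189 CPM at 1 mM and at 228, 187 and 241 CPM at 10 mM, and replicate 2 was the lowest library of each group. Its log2 fold change at 10 mM against control was 0.39 (SE 0.11, adjusted p = 0.0157). Tra2a had 126, 129.8 and 126 CPM in control, 131, 121 and 143 CPM at 1 mM and 153, 130.2 and 157 CPM at 10 mM, or 0.20 against control on the log2 scale (SE 0.077, adjusted p = 0.047). Its lowest 10 mM library lay just above its highest control library. Tra2b did not pass without replicate 1 or 3 of 10 mM or replicate 2 of control (adjusted p 0.0531 to 0.0635). Tra2a did not pass without replicate 1 or 3 of 10 mM, replicate 1 of 1 mM or any of the 3 control libraries (0.0635 to 0.168), nor with DESeq2's size factors (0.0545). In edgeR with the replicate number as a block, Tra2b (adjusted p = 1.5e-08) and Tra2a (0.000469) passed.

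Among the 20 hnRNP genes, 6 (30%) were lower at 10 mM than in control, 4 (20%) were higher and 10 passed in neither direction, with a median log2 fold change of -0.01. Of all genes 24.0% were lower and 25.7% higher, so both shares were near the background. Hnrnph1 and Hnrnph2 had the lowest log2 fold changes of the members. They encode closely related proteins that bind runs of guanine. Hnrnph1 (chr11:50376990-50386528, plus strand) stood at 854, 733 and 888 CPM in control, at 686, 587 and 697 CPM at 1 mM and at 567, 508 and 561 CPM at 10 mM. No 2 groups overlapped, and the log2 fold change at 10 mM against control was -0.60 (SE 0.084, adjusted p = 0.000208).

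Hnrnph2, an X-linked gene (chrX:134601179-134607060, plus strand), stood at 141, 129.7 and 146 CPM in control, at 118, 105 and 119.6 CPM at 1 mM and at 92.6, 90.1 and 94.8 CPM at 10 mM. Its groups also stood apart at each dose, with a log2 fold change of -0.59 at 10 mM against control (SE 0.062, adjusted p = 3.0e-05). Hnrnph3, a shorter relative, averaged 42.2 ± 1.90 CPM at 10 mM and 43.3 ± 4.87 CPM in control and did not pass. Of the 75-base stretches of Hnrnph2, 11.1% recurred in the pseudogene Gm8775.

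Hnrnpa2b1, which binds RNA transported into neuronal processes, had 279, 232 and 283 CPM in control, 257, 212 and 242 CPM at 1 mM and 196, 180.4 and 187 CPM at 10 mM. Its log2 fold change at 10 mM against control was -0.50 (SE 0.086, adjusted p = 0.000762), and the highest 10 mM library lay below the lowest library of either other group. Hnrnpm, a splicing repressor, had 291, 243 and 309.7 CPM in control, 257, 221 and 269 CPM at 1 mM and 207, 191 and 219 CPM at 10 mM, which is -0.45 on the log2 scale (SE 0.096, adjusted p = 0.00271). The gene March2 shared 20.7% of the 75-base stretches of Hnrnpm on the same strand.

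Hnrnpu, a nuclear matrix protein that binds RNA and chromatin, had the highest CPM of the hnRNP genes in control. It stood at 1027, 934 and 1121 CPM in control, at 889, 802 and 923 CPM at 1 mM and at 791, 706 and 794 CPM at 10 mM, with a log2 fold change of -0.43 at 10 mM against control (SE 0.077, adjusted p = 0.000993). Hnrnpab had 948, 829.7 and 992 CPM in control, 834, 733 and 854 CPM at 1 mM and 797, 698 and 785 CPM at 10 mM, or -0.28 on the log2 scale (SE 0.081, adjusted p = 0.0146). In both genes all 10 mM libraries lay below all control libraries, while the 1 mM libraries of Hnrnpab overlapped those of control. Phykpl lay opposite 20.9% of the stretches of Hnrnpab, at 1.14 ± 0.143 CPM at 10 mM and 2.13 ± 0.0410 CPM in control.

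The hnRNP genes that rose at 10 mM were Hnrnpa3, Hnrnpdl, Hnrnpul1 and Hnrnpul2. Hnrnpa3, an A/B-type protein, had 30.02, 28.1 and 30.5 CPM in control, 33.7, 33.6 and 35.8 CPM at 1 mM and 37.8, 35.4 and 40.0 CPM at 10 mM, with a log2 fold change of 0.35 at 10 mM against control (SE 0.065, adjusted p = 0.00111). Both treated groups of Hnrnpa3 lay above control without overlap, but 26.9% of its 75-base stretches recurred in other genes. Hnrnpdl, a relative of the mRNA decay factor Hnrnpd, had 551, 463 and 567 CPM in control, 607, 522 and 599.5 CPM at 1 mM and 663, 610.4 and 668 CPM at 10 mM (log2 fold change 0.30, SE 0.082, adjusted p = 0.0118). Its 10 mM libraries lay above all others.

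Hnrnpul1 and Hnrnpul2, which resemble Hnrnpu and take part in the DNA damage response, had log2 fold changes of 0.26 (SE 0.078) and 0.20 (SE 0.058) at 10 mM against control. Hnrnpul1 did not pass without replicate 3 of 10 mM or replicate 1 or 2 of control (adjusted p 0.0570 to 0.0796), nor did Hnrnpul2 without replicate 1 or 3 of 10 mM or replicate 1 or 2 of control (0.0520 to 0.0847). In edgeR with the replicate block, Hnrnpul1 (adjusted p = 1.3e-08) and Hnrnpul2 (1.13e-05) passed. The hnRNP genes that passed in neither direction were Hnrnpa0, Hnrnpa1, Hnrnpc, Hnrnpd, Hnrnpf, Hnrnph3, Hnrnpk, Hnrnpl, Hnrnpll and Hnrnpr, with log2 fold changes from -0.12 to 0.21. With the replicate block, Hnrnpa0 (log2 fold change 0.07, adjusted p = 0.0411), Hnrnpa1 (0.21, 0.000805), Hnrnpd (0.09, 0.0169) and Hnrnpr (0.09, 0.00435) passed as higher and Hnrnpk (-0.11, 0.000598) as lower. With library totals alone the fold changes of Hnrnpa0 and Hnrnpr took the opposite sign.

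**Figure D3:**
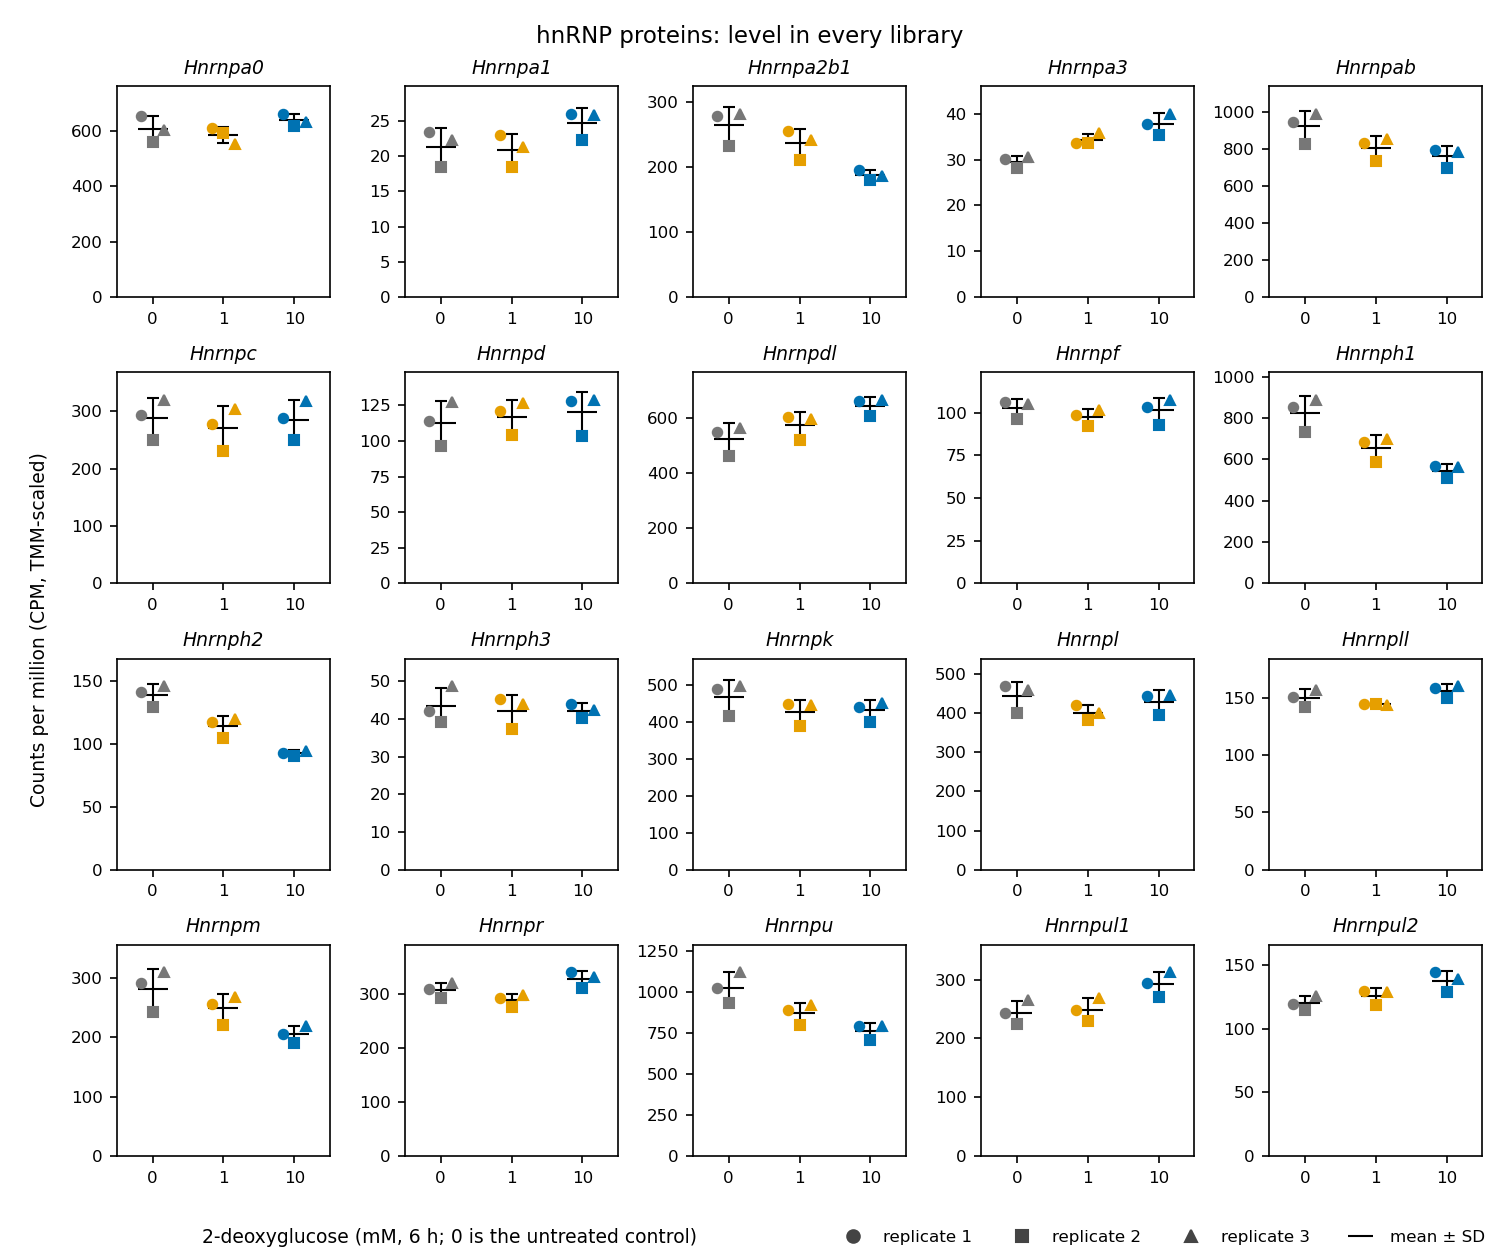
CPM of the 20 hnRNP genes in all 9 libraries, by dose of 2-DG in mM (0 is control), with symbols for the replicate number and a dash with bars for mean and SD of 3 libraries. Hnrnph1 and Hnrnph2 step down at each dose without overlap, Hnrnpa3 lies higher in both treated groups, and Hnrnpc and Hnrnpd show little change against a wide spread between libraries.

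A ratio of raw counts within a library is free of the scaling between libraries. Summed counts of the SR genes divided by those of the hnRNP genes gave 0.397, 0.407 and 0.393 in the control libraries, 0.449, 0.454 and 0.458 at 1 mM and 0.551, 0.548 and 0.569 at 10 mM. The 3 groups did not overlap and their order followed the dose, and replicate 2 was the highest library in control and the lowest at 10 mM. The SR genes took 0.309% to 0.351% of all counts at 10 mM and 0.263% to 0.296% in control. The hnRNP genes took 0.564% to 0.616% at 10 mM and 0.645% to 0.753% in control. Such a ratio shows unequal change of the sums, not which of them moved, and abundant genes weigh most in a sum. From control to 10 mM, mean CPM fell from 1027 to 763 for Hnrnpu, 825 to 545 for Hnrnph1 and 923 to 760 for Hnrnpab. Yet 6 of the 20 hnRNP genes were lower and 4 higher, with a median log2 fold change of -0.01. The ratio thus does not describe the typical hnRNP gene, and it was not computed for other gene sets.

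Single pairs gave the same order of doses. Counts of Srsf3 over those of Srsf2 had means ± SD over 3 libraries of 0.758 ± 0.0517 in control, 0.971 ± 0.0370 at 1 mM and 1.39 ± 0.0482 at 10 mM. Counts of Srsf6 over those of Hnrnph1 averaged 0.381 ± 0.00869 in control, 0.588 ± 0.0108 at 1 mM and 0.967 ± 0.0400 at 10 mM. These genes were chosen after their values were seen, so the ratios are a description.

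**Figure D4:**
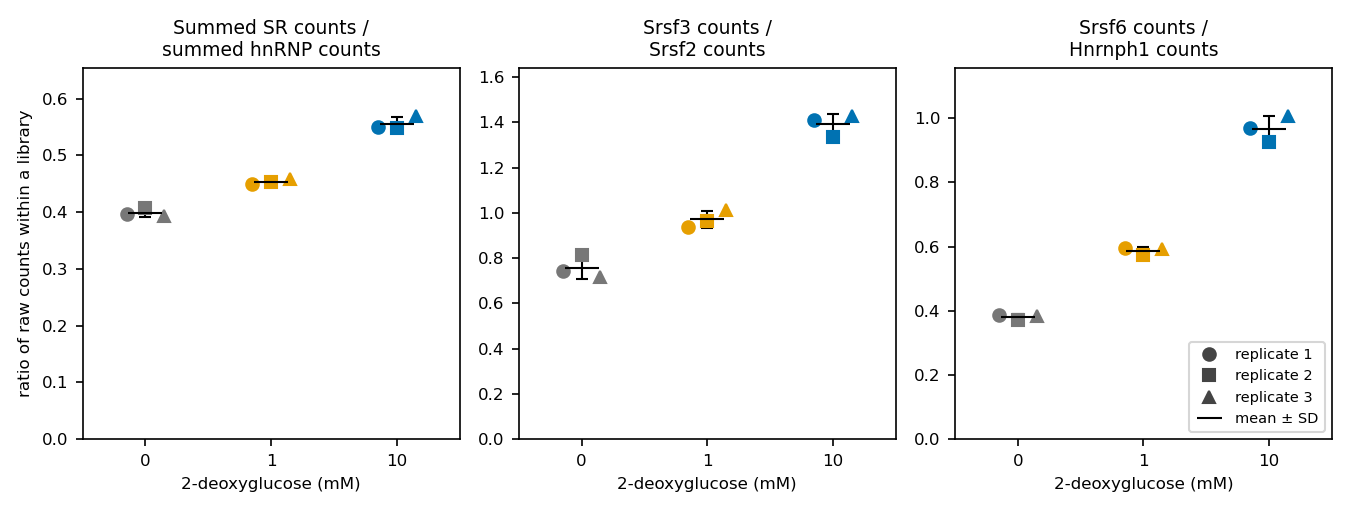
Ratios of raw counts within each library by dose of 2-DG in mM (0 is control), for summed SR over summed hnRNP genes, Srsf3 over Srsf2 and Srsf6 over Hnrnph1. Points are libraries by replicate number, and dashes with bars are mean and SD of 3. The mean of the leftmost ratio is 0.399 in control, 0.453 at 1 mM and 0.556 at 10 mM.

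At 1 mM the number of members that passed depended on whether the pairing of libraries by replicate number was in the model. Without it, in edgeR's test, 1 of 37 was higher than in control (2.70%) and 2 were lower (5.41%), against 5.69% and 4.34% of all genes. Clk4 was the member that rose (log2 fold change 0.26, SE 0.072, adjusted p = 0.0467), and Hnrnph1 (-0.33, SE 0.084, adjusted p = 0.0331) and Hnrnph2 (-0.29, SE 0.062, adjusted p = 0.0153) fell. Each of these calls was lost in some fits with 1 library left out, over which the log2 fold change ran from 0.19 to 0.35 for Clk4, from -0.41 to -0.26 for Hnrnph1 and from -0.33 to -0.23 for Hnrnph2. Clk4 did not pass without any 1 of the libraries except replicate 2 of 1 mM (adjusted p 0.0516 to 0.164), nor did Hnrnph1 without replicate 1 or 2 of 1 mM or replicate 1 or 3 of control (0.0645 to 0.122), nor Hnrnph2 without replicate 1 or 3 of control (0.0603 to 0.0653). Clk4 and Hnrnph1 also missed the threshold when the 6 libraries compared were fitted alone, with adjusted p of 0.095 and 0.0585.

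The replicate block changed this comparison most. With it, 8 members (21.6%) were higher and 12 (32.4%) lower at 1 mM, against 18.1% and 18.3% of all genes. Higher were Srsf3, Srsf4, Srsf6, Srsf12, Clk3, Clk4, Hnrnpa3 and Hnrnpdl, with Srsf6 at a log2 fold change of 0.30 (adjusted p = 9.87e-09) and Srsf3 at 0.16 (0.000449). Lower were Srsf2, Srsf9, Hnrnpa2b1, Hnrnpab, Hnrnpc, Hnrnph1, Hnrnph2, Hnrnpk, Hnrnpl, Hnrnpm, Hnrnpr and Hnrnpu, with Hnrnpu at -0.24 (3.31e-07) and Srsf9 at -0.21 (0.000254). With replicates 1 and 3 alone, 2 members were higher and 10 lower, against 7.26% and 6.04% of all genes.

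Between the doses, 12 members were higher at 10 mM than at 1 mM (32.4%) and 4 were lower (10.8%), against 17.5% and 13.7% of all genes. Higher were Srsf1, Srsf3, Srsf4, Srsf6, Srsf7, Srsf10, Srsf11, Clk3, Clk4, Tra2b, Hnrnpr and Hnrnpul1, so 7 of the 11 SR genes. Lower were Hnrnpa2b1, Hnrnph1, Hnrnph2 and Hnrnpm, all hnRNP genes. Among the members that passed, the largest rises on the log2 scale were those of Srsf3 (0.48, SE 0.087, adjusted p = 0.00248), Srsf6 (0.45, SE 0.10, adjusted p = 0.00821) and Clk3 (0.39, SE 0.046, adjusted p = 0.000273). The largest fall was that of Hnrnpa2b1 (-0.34, SE 0.085, adjusted p = 0.0131). This comparison and that of 10 mM with control share the 10 mM libraries, so their calls are not independent.

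Library totals alone gave 8 members higher and 6 lower at 10 mM than at 1 mM, against 10.3% and 19.5% of all genes. Higher calls were then 57.1% of the calls, against 75% with TMM. The calls not made with library totals alone were Srsf1, Tra2b, Hnrnpr and Hnrnpul1, and Srsf9 and Hnrnpu were added as lower. The replicate block gave 25 higher and 7 lower, against 30.7% and 25.6% of all genes. Of the 16 calls 9 were kept whichever library was left out. Hnrnpa2b1 did not pass without replicate 1 of 1 mM (adjusted p = 0.0566). Hnrnph1 and Hnrnpm did not pass without any of the 10 mM libraries or replicate 1 or 3 of 1 mM (0.0592 to 0.111 and 0.0594 to 0.153). Hnrnpr did not pass without replicate 1 or 3 of 10 mM, replicate 1 or 2 of 1 mM or replicate 1 of control (0.0546 to 0.119). Srsf1, Tra2b and Hnrnpul1 did not pass without replicate 1 or 3 of 10 mM, replicate 1 or 2 of 1 mM or replicate 1 or 3 of control (0.0543 to 0.157, 0.0549 to 0.133 and 0.0509 to 0.171). Tra2b also missed the threshold when the 6 libraries compared were fitted alone (0.0577).

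Over the 3 comparisons, 26 members passed in at least 1 and 11 in none. Clk4, Hnrnph1 and Hnrnph2 passed in all 3. The mean CPM rose at each step of dose for 18 members and fell at each step for 8. Such passes and orders were not counted over all genes, so these numbers describe the members and single out no trait of theirs.

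**Figure D5:**
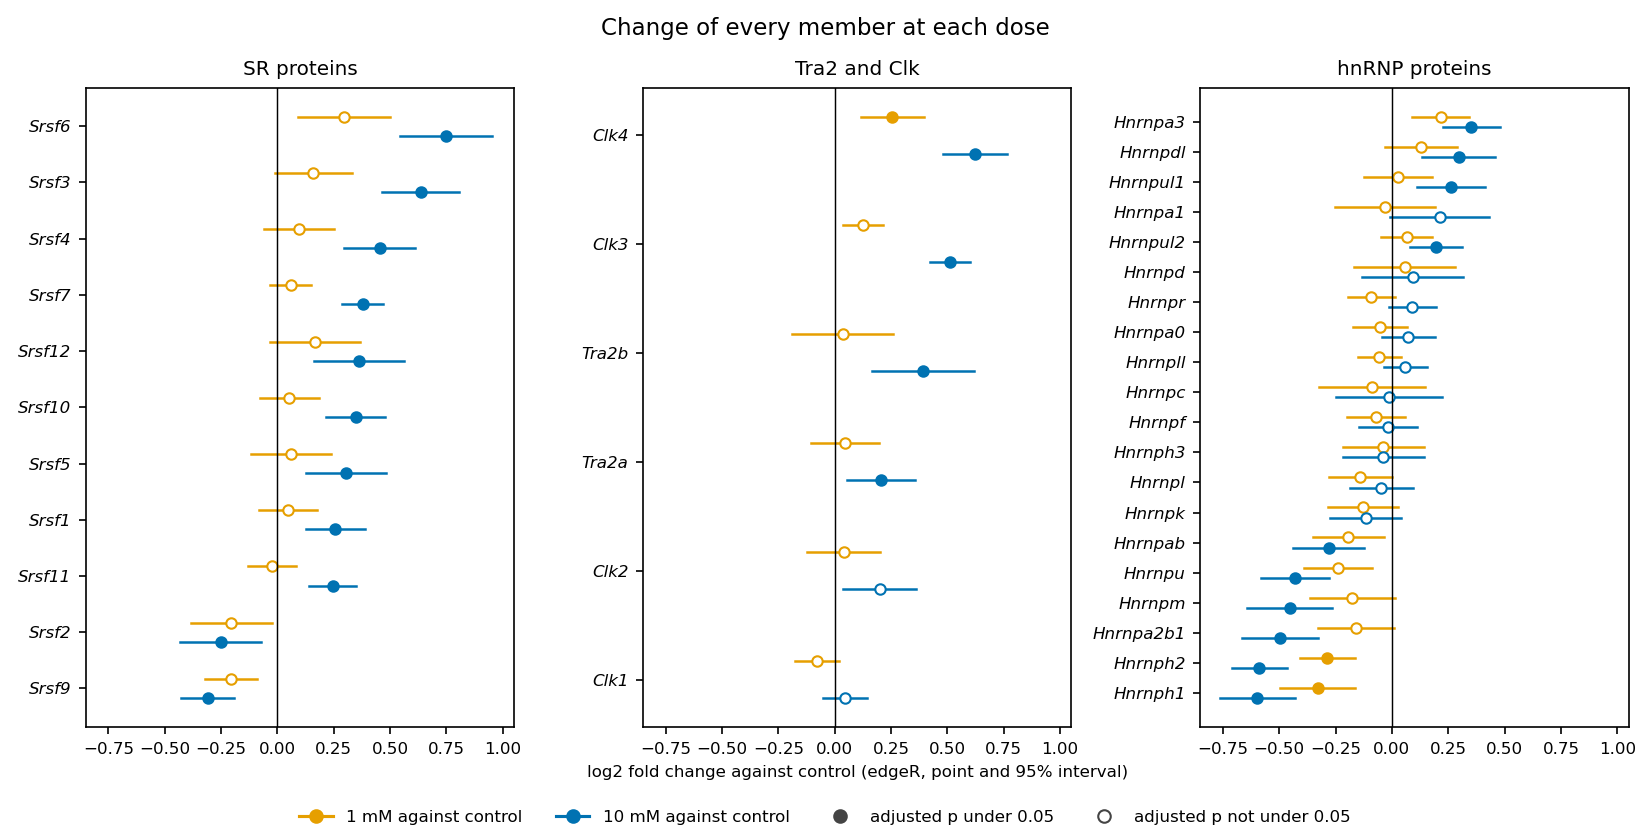
Log2 fold changes against control of every member at 1 mM and 10 mM 2-DG, by role, as edgeR estimates with 95% intervals. Filled points passed an adjusted p of 0.05. At 10 mM all SR genes are filled, from -0.31 for Srsf9 to 0.75 for Srsf6, while the hnRNP genes spread from -0.60 for Hnrnph1 to 0.35 for Hnrnpa3.

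Promoters were read for motifs of stress-responsive and general factors. RefSeq windows (GRCm38.p6) matched 34 of the 37 members, with 46 start sites, and the 250 bases before each start were searched on both strands. The motif TGACGTNA, the core bound by CREB and ATF proteins, stood in 6 of the 46 windows, which belong to Srsf3, Clk4, Tra2a, Hnrnpa3 and Hnrnpa2b1, and in 2.52% of all 32851 windows. The 2 windows of Hnrnpa2b1 overlap and hold the same match, so 5 of the 34 members had a match. No test was run on the shares of windows. At 10 mM Srsf3, Clk4, Tra2a and Hnrnpa3 were higher than control and Hnrnpa2b1 was lower. The motif TGATGNAA, the core of sites at which ATF4 pairs with C/EBP proteins, stood in 2 of the 46 windows, the overlapping windows of Hnrnpa2b1, and in 3.45% of all windows. The CCAAT box stood in 22 of the 46 windows and in 33.8% of all windows, GGGCGG in 38 and 32.7%, the E-box CACGTG in 4 and 6.02%, and TATAAA in 3 (Srsf2, Srsf3 and Hnrnpm) and 12.4%. The windows of 3 members that moved in opposite directions are printed 5′ to 3′ on the strand of the gene, with TGACGTNA or its reverse complement in capitals: Srsf3 (chr17:29032410-29032659, plus strand), Clk4 (chr11:51262864-51263113, plus strand) and Hnrnpa2b1 (chr6:51469895-51470144, minus strand).
Srsf3: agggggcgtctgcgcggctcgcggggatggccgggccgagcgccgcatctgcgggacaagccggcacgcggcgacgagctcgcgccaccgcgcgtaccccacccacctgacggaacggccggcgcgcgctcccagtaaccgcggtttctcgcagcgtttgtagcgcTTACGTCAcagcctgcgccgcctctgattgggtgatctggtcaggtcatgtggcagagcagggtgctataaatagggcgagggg
Clk4: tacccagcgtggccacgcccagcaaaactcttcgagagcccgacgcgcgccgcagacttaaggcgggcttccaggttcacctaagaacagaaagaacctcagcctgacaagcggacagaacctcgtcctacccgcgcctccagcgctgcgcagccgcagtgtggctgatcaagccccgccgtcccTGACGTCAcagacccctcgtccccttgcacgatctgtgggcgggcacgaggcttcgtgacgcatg
Hnrnpa2b1: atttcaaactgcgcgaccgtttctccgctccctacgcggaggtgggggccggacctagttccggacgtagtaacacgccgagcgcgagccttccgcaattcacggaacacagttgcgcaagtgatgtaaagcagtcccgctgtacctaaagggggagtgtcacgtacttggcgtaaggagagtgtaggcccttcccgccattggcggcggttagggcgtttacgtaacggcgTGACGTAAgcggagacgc
The match lay 84 bases before the start in Srsf3, 65 in Clk4 and 18 in Hnrnpa2b1. A match is a string of letters, and binding was not measured.

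Other genes of the splicing machinery were counted from lists, at 10 mM against control, where 25.7% of all genes were higher and 24.0% lower. Of 32 SR-related proteins, which carry an arginine-serine tail without being classical SR proteins, 17 were higher (53.1%) and none was lower, with a median log2 fold change of 0.25. Nktr, a cyclophilin with such a tail, was at 1.10 (SE 0.061), Rbm39, a splicing coactivator, at 0.87 (SE 0.078) and Luc7l, a homologue of a U1 snRNP protein, at 0.78 (SE 0.054). Of 8 tested SR protein kinases other than Clk and import receptors, 7 were higher and 1 was lower. Tnpo2 and Tnpo3, importins of which Tnpo3 carries SR proteins into the nucleus, were at 0.48 (SE 0.040) and 0.36 (SE 0.049), and the kinase gene Dyrk1a at 0.35 (SE 0.044). These counts were 16 higher and 0 lower, and 6 higher and 1 lower, without the replicate 2 libraries. In that fit, 3870 of 15296 genes were higher and 3849 lower. With library totals alone the counts were 15 higher and 1 lower, and 6 higher and 1 lower, against 18.8% and 31.5% of all genes.

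The remaining lists held calls in both directions. Of 13 hnRNP proteins under other symbols, 4 were higher and 3 lower, with Khsrp, a factor of mRNA decay and splicing, at 0.44 (SE 0.055), Pcbp4 at -0.19 (SE 0.049) and Raly at -0.17 (SE 0.044). Of 34 tested other splicing regulators, 6 were higher (17.6%) and 7 lower (20.6%), both shares below those of all genes, with Mbnl2, a muscleblind regulator of exon choice, at 1.26 (SE 0.11), Taf15 at 1.02 (SE 0.085) and Tial1 at 0.71 (SE 0.051). Of 40 core spliceosome genes, 16 were higher and 8 lower, with Cdc5l at 0.52 (SE 0.057), Prpf31 at -0.87 (SE 0.096) and Sf3b6 at -0.42 (SE 0.048). These directions depended on the scaling and the block. With library totals alone, the 3 lists gave 1 higher and 5 lower, 6 higher and 14 lower, and 7 higher and 14 lower, in the same order, against 18.8% and 31.5% of all genes. With the replicate block they gave 4 higher and 6 lower, 12 higher and 12 lower, and 23 higher and 13 lower, against 34.4% and 33.8% of all genes.

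Marker lists of other cell types differed in how they stood at each dose. The 8 markers of radial glia and progenitors summed to 1281 to 1643 CPM in control, 1057 to 1295 CPM at 1 mM and 975 to 1177 CPM at 10 mM, and 4 of them were lower at 10 mM than in control. The 9 microglia and macrophage markers summed to 53.7 to 80.8 CPM in control, 22.7 to 28.8 CPM at 1 mM and 25.0 to 36.7 CPM at 10 mM, and 8 were lower at 10 mM than in control, while at 10 mM against 1 mM 1 was higher and none lower. The oligodendrocyte lineage markers summed to 60.3 to 66.4 CPM in control, 50.7 to 57.0 CPM at 1 mM and 41.6 to 47.6 CPM at 10 mM, without overlap, and 2 of 5 tested were lower at 10 mM than in control. The astrocyte sums overlapped between all doses, at 174 to 255 CPM in control, 186 to 257 CPM at 1 mM and 178 to 241 CPM at 10 mM. Yet of 5 tested astrocyte markers, 1 was lower at 10 mM than in control and 0 were higher, with a median log2 fold change of -0.49. That median was -0.44 for radial glia and progenitors and -0.49 for the oligodendrocyte lineage. For all genes, 24.0% were lower at 10 mM than in control, and 17.5% were higher and 13.7% lower than at 1 mM. The erythroid markers Hba-a1 and Hbb-bt were at 0 in every group. Of the 2 other erythroid markers, 1 was higher at 10 mM than in control and 1 higher than at 1 mM. The erythroid list summed to 0.262 to 0.417 CPM in control, 0.266 to 0.652 CPM at 1 mM and 0.624 to 1.04 CPM at 10 mM. The astrocyte marker S100b was at 0 at 10 mM. The ribosomal RNA gene Rn45s took 0.960% to 1.0545% of counts in control, 0.589% to 0.884% at 1 mM and 0.534% to 0.563% at 10 mM. The part of these shifts in the results was not tested, and in bulk RNA fewer cells of a type and less RNA per cell cannot be told apart.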

How the data were processed

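The authors deposited 1 table of raw read counts per gene for 9 libraries, with columns matched to libraries by title. Per the labels' protocols, RNA was amplified to cDNA, made into stranded libraries after removal of ribosomal RNA, sequenced as 75 bp paired ends and aligned with STAR 2.4.0 to mm10. The submitters' processing notes also name bcl2fastq 2.17 and HTSeq. For annotation and strandedness of the counting, the sources used here state nothing, so reads of a gene and of an overlapping gene on either strand may not be told apart. The 1 row that names no gene (at most 0.000216% of counts) was left out.

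Genes were filtered with filterByExpr (minimum count 10, minimum total 15), which left 15153, and scaled by TMM. All 9 libraries were fitted with 3 groups and no block, and compared by the quasi-likelihood F test of edgeR (two-sided). P-values were adjusted after Benjamini and Hochberg across the 15153 genes, with 0.05 as threshold, and adjusted p-values in the text are from edgeR. The standard error (SE) is the size of the log2 fold change divided by the square root of F. Software was R 4.3.3, edgeR 4.0.16, limma 3.58.1 and DESeq2 1.42.0. The fits were also run on simulated counts with few changed genes and no replicate effect. Such counts cannot show how the scaling or the pairing act on the calls here.

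Within a role group, values per library are given for up to 8 members past the threshold with the smallest p and for the member with the highest mean CPM, and in other splicing lists for at most 3 genes past the threshold with the smallest p. The members and lists were chosen with earlier results of these data known. Replicate numbers of the titles pair the libraries: deviations from the group means correlated at 0.351 to 0.518 in all 9 same-numbered pairs, above the threshold of 0.1. Exon structures and shared 75-base stretches were taken from GENCODE on GRCm38, promoters from RefSeq (GRCm38.p6). The 75-base stretches of a member were those of its protein-coding transcripts. Counts without molecular identifiers are not independent molecules, so the spread between libraries, not the read number, sets the errors. The alternatives were other scalings, DESeq2, no filter, fits of only the libraries compared, the block, leaving out each library and, chosen after seeing the data, 2 more fits.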

Additional observations from a re-analysis of the deposited data

How the results depend on the processing

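At 10 mM against control, the calls ranged over the alternatives from 12 to 22 members higher and from 7 to 13 lower. Among all genes tested, 2850 to 5213 were higher and 2998 to 6372 lower over the same fits. Leaving out each library gave 12 to 17 higher and 7 to 9 lower, and 18 of the 25 calls were kept in all of these fits. Of the 15267 to 15362 genes tested in these fits, 3194 to 3866 were higher and 2998 to 3937 lower. At 1 mM, the 1 higher and 2 lower members became 8 and 12 with the replicate block, 2 and 4 with the DESeq2 Wald test, 0 and 1 with only the 6 libraries compared, and 0 to 2 and 0 to 5 when each library was left out. Over all genes, 18.1% were higher and 18.3% lower with the block. The DESeq2 Wald test gave 1035 higher and 859 lower of 22409 genes, and the 6 libraries 664 and 492 of 14978. When each library was left out, 509 to 894 genes were higher and 293 to 674 lower. At 10 mM against 1 mM, the replicate block gave 25 higher and 7 lower, and leaving out each library gave 8 to 14 higher and 1 to 5 lower. Over all genes, the block gave 30.7% higher and 25.6% lower, and leaving out each library 1855 to 2344 genes higher and 1392 to 2300 lower. The block ended no call, and the calls it added are named in the report or included in these counts. A fit with library totals alone and the replicate block, chosen after seeing the data, gave 8 higher and 13 lower at 1 mM, 13 lower at 10 mM against control and 9 lower at 10 mM against 1 mM. In that fit, 2516 of the 15153 genes were higher and 2971 lower at 1 mM. At 10 mM, 3995 were higher and 6372 lower than in control, and 3049 higher and 5457 lower than at 1 mM. In both 10 mM comparisons that fit kept every call of members made with TMM and no block. A fit of the 6 libraries of replicates 1 and 3, also chosen after seeing the data, gave 2 higher and 10 lower at 1 mM, against 7.26% and 6.04% of all genes. The cause was not tested.

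Among the fold changes recomputed under each alternative (those that passed with or without the block), direction turned only for Hnrnpa0, Hnrnpc, Hnrnpd and Hnrnpr, in comparisons in which they had passed with the block alone. With library totals alone, and with the block added, the log2 fold change at 10 mM against control was -0.0172 and -0.0159 for Hnrnpa0 and -5.255e-05 and -9.52e-05 for Hnrnpr, and that of Hnrnpc at 10 mM against 1 mM was -0.00668 and -0.003875. When each library was left out, it ran from -0.18 to 0.0174 for Hnrnpc at 1 mM against control, from -0.0253 to 0.17 for Hnrnpd at 10 mM against control and from -0.0478 to 0.17 for Hnrnpc at 10 mM against 1 mM. The lowest count of Hnrnpa1, the least-counted member, was 762 in a library. Gene totals do not separate isoforms.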
